A study of Mus musculus with 13 samples.

Results

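The levels of 10 genes of blood vessels were followed in the tibialis anterior, a muscle at the front of the shin, of mdxTG, mdx and WT mice. They were chosen by name as Pecam1, Cdh5, Kdr, Flt1, Tek, Tie1, Sox17, Sox18, Vwf and Vegfa in the deposited expression sheet, and all 10 were among its 13846 genes and among the 13831 tested. The mdxTG group (n = 4) consisted of mdx mice that also express a sarcospan (Sspn) transgene, whose product sits with the dystrophin complex in the fibre membrane. The mdx group (n = 4) lacked the transgene and carried the same dystrophin mutation, the mouse model of Duchenne muscular dystrophy, and the WT group (n = 5) was wild type. The labels give no age, sex or strain, and no promoter for the transgene. Levels are normalized CPM, reads scaled to library size by the submitters, and all changes are log2 fold changes with their standard error (SE), from one limma model over the 13 libraries.

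Endothelial cells line every vessel of the muscle and make up its capillaries. VEGFA, secreted by muscle fibres and other cells, acts on endothelial cells mainly through the receptor KDR, while FLT1 binds VEGFA tightly and signals weakly, so that it holds ligand away from KDR. Angiopoietins act through TEK with its partner TIE1, which steady the vessel wall, and PECAM1 and CDH5 sit at the contacts between endothelial cells.

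The levels of these genes were lower in mdxTG than in WT muscle for most members, with Vegfa, Flt1, Vwf and Sox17 lowest relative to WT, and Kdr did not pass the test in any of the 3 comparisons. In mdxTG against WT, 7 of the 10 members fell (Vegfa, Flt1, Vwf, Sox17, Tek, Pecam1 and Tie1) and 0 rose, beside 54.0% of all tested genes that changed in that comparison, 28.7% upward and 25.3% downward. In mdx against WT 3 members fell (Vegfa, Flt1 and Tek) and 0 rose, beside 34.6% of all genes changed, 18.5% upward and 16.1% downward. In mdxTG against mdx Vegfa fell and no other member passed, beside 28.4% of all genes changed, 15.4% upward and 12.9% downward. Over both directions, the members' share of calls was above that of all genes in mdxTG against WT, near it in mdx against WT and below it in mdxTG against mdx. None of the 10 members is in the authors' deposited tables of these comparisons, which hold genes with a log2 fold change of at least 1 in size.

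These counts rest on the scaling between libraries. The submitters' scaling factors were 1.107 to 1.191 in mdxTG, 1.006 to 1.068 in mdx and 0.831 to 0.932 in WT, and without them (plain CPM) the median log2 fold change of all genes moved to 0.36 in mdxTG against WT, 0.13 in mdxTG against mdx and 0.20 in mdx against WT. With the scaling these medians were 0.02, 0 and -0.01. In plain CPM the members that passed were Kdr upward and Vegfa downward in both mdxTG comparisons and Sox18 upward in mdx against WT. Of all genes, 65.8% then changed in mdxTG against WT (57.2% upward and 8.54% downward), 32.4% in mdxTG against mdx (25.3% and 7.09%) and 42.6% in mdx against WT (37.2% and 5.32%). The share of called genes that were higher moved with it, to 87.0% in mdxTG against WT, 78.1% in mdxTG against mdx and 87.5% in mdx against WT, from values with the scaling of 53.1%, 54.4% and 53.5%. Relative to the median of all genes, the members' median was -0.35 in mdxTG against WT, -0.16 in mdxTG against mdx and -0.20 in mdx against WT, and in plain CPM it was -0.32, -0.15 and -0.18. A scaling factor moves all genes of a library alike. The place of the members below the median gene could therefore hardly differ between the scalings, and its likeness is no separate result. The sign of the members' own median flipped in mdx against WT and in mdxTG against WT.

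**Figure D1:**
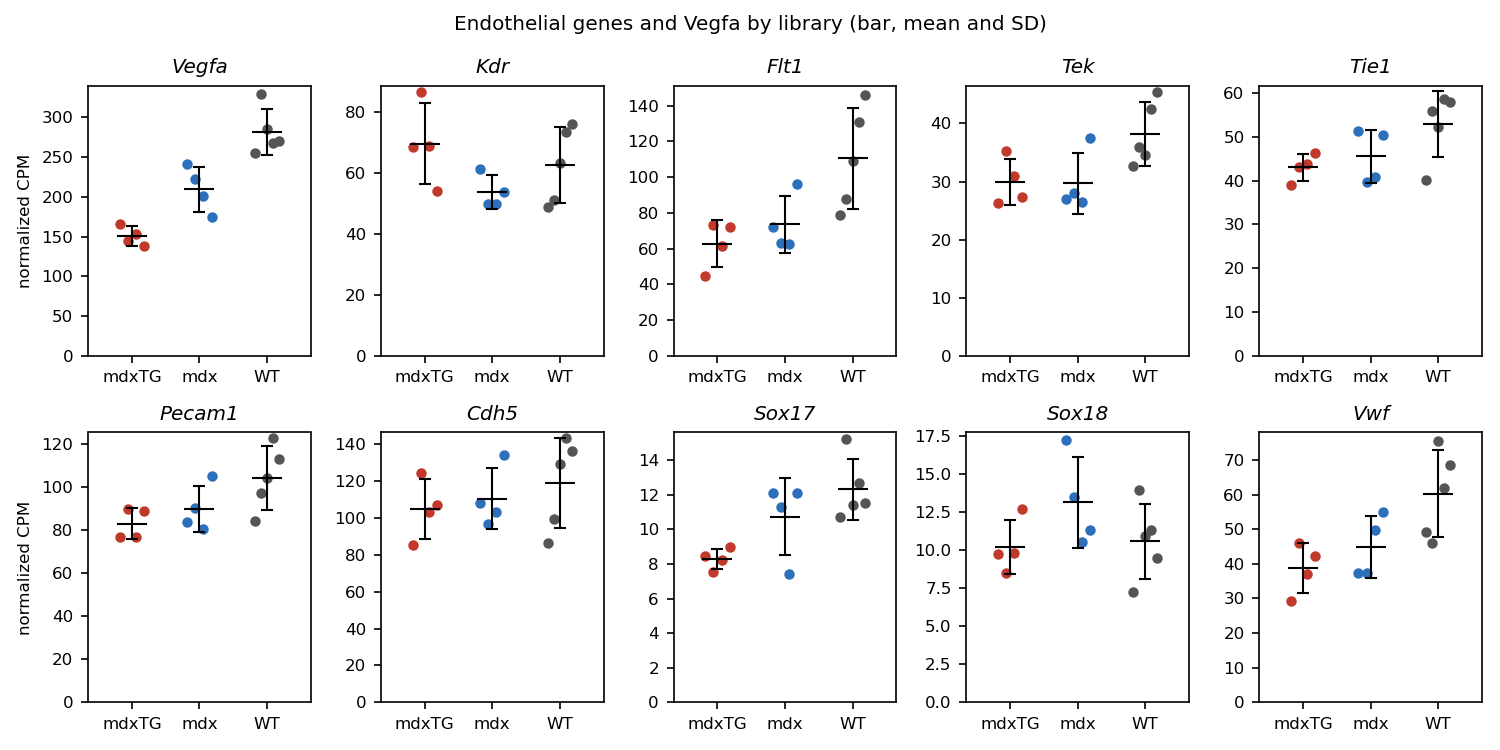
Normalized CPM of the 10 members in each library; each point is 1 library, and bars give the mean and SD of mdxTG (n = 4), mdx (n = 4) and WT (n = 5). For Vegfa the mdxTG libraries lie at 138 to 166, below every mdx library at 175 to 241 and every WT library at 255 to 330, while for Kdr the groups overlap.

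The libraries held 53.26 to 68.44 M reads, of which 41.74 to 53.87 M fell on listed genes, and the members were counted with 299 reads (Sox18, the lowest in a library) to 13611 reads (Vegfa, the highest). Sspn stood at 1583 to 2006 normalized CPM in mdxTG, against 109 to 119 in mdx and 101 to 136 in WT, and Dmd, the dystrophin gene, at 53.9 to 62.3 in mdxTG, 48.7 to 58.3 in mdx and 124 to 255 in WT. The fibre gene Ckm, which encodes muscle creatine kinase, marked all libraries as muscle (10483 to 12563 in mdxTG, 13817 to 15658 in mdx and 17301 to 26506 in WT). Libraries also differed within a genotype along 1 main axis that held 38.5% of the within-genotype variance, where WT replicates 1 and 2 scored 22.2 and 22.9 and WT replicates 3 to 5 scored -13.7, -10 and -21.4. Results of the members against WT are therefore also given without WT replicates 1 and 2. On the same side lay mdx replicates 1 and 2 (14.4 and 12.1) and mdxTG replicates 1 and 3 (14.7 and 4.8), which were kept. Several members were correlated with this axis, such as Vwf (-0.95), Cdh5 (-0.86), Flt1 (-0.82) and, in the other direction, Vegfa (0.61). Leaving out these WT libraries alone therefore moves the members' WT means by construction, and the shifts then seen are no separate support. The share of reads mapped to a single place was 86.58% to 88.62% in mdxTG, 84.96% to 87.36% in mdx and 80.94% to 85.83% in WT, without overlap between mdxTG and WT, and its part in the changes was not tested. Because whole muscle was sequenced, fewer endothelial cells and less RNA per endothelial cell cannot be told apart in any of these values.

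The promoters of the ligand gene Vegfa and of the 3 receptor genes Kdr, Flt1 and Tek are shown first, since ETS factors, which bind GGAA, are the main activators shared by endothelial genes. RefSeq gave windows for 5 of the 10 members, and windows that lay wholly or mostly inside the annotated gene are not shown. The windows are the 250 bases before the start site in RefSeq on GRCm38.p6, written along the gene's strand, with GGAA and its reverse complement TTCC in capitals. They lie at chr17:46032378-46032627 for Vegfa (minus strand), chr5:75978456-75978705 for Kdr (minus), chr5:147726012-147726261 for Flt1 (minus) and chr4:94739039-94739288 for Tek (plus). 
Vegfa: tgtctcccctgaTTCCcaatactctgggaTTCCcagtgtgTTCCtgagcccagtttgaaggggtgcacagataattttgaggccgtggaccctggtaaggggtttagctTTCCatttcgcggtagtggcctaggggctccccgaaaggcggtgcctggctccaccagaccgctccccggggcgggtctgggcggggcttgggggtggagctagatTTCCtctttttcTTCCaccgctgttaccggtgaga
Kdr: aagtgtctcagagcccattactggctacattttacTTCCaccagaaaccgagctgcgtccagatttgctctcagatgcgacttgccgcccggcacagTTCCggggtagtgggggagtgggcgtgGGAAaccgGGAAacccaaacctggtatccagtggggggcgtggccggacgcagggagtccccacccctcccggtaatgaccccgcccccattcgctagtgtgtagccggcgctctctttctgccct
Flt1: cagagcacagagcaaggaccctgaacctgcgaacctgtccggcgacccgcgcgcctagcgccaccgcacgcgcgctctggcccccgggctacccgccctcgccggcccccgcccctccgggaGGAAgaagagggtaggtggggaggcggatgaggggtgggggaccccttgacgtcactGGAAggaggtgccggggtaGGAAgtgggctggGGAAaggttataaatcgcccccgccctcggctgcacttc
Tek: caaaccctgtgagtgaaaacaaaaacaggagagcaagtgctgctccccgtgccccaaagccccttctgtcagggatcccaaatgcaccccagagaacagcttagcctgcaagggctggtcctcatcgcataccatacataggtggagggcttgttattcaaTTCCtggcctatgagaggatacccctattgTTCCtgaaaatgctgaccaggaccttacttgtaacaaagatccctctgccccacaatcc
The GGAA letters occurred 6 times in the Vegfa window, 4 times in that of Kdr, 4 times in that of Flt1 and 2 times in that of Tek. Of all 32851 RefSeq windows of this length, 93.4% held GGAA on either strand, with a median of 3 matches, so the letters are common. ACAAT, the core bound by SOX factors (ATTGT on the other strand), occurred 2 times in the Tek window and in none of the other 3, beside 27.7% of all windows. The core of the hypoxia element, ACGTG, was on neither strand in the 4 windows shown, beside 16.6% of all. RefSeq has a second Vegfa window, at chr17:46025164-46025413 inside the annotated gene and not shown here, which held 1 match to ACGTG and 2 to GGAA. The Tie1 window, at chr4:118489850-118490099 with 212 of its 250 bases inside the annotated gene, is not shown either and held 7 matches to GGAA. The GATA site AGATAA, sought on both strands, occurred 1 time in the Vegfa window, beside 9.99% of all. In the Tek window 1 match to ACAAT shares 1 base with a TTCC match. A match is a description of the letters and not of binding. Kdr and Flt1 had the same number of GGAA matches.

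Vegfa (chromosome 17, 46016993 to 46032369, minus strand) encodes the main growth factor of blood vessels. Its levels were 166, 145, 154 and 138 normalized CPM in mdxTG, against 241, 222, 201 and 175 in mdx and 255, 330, 286, 268 and 271 in WT. The 3 groups did not overlap in either direction: every mdxTG library was below every mdx library, and every mdx library was below every WT library. By limma with Benjamini-Hochberg adjustment, Vegfa fell in mdxTG against WT by a log2 fold change of -0.90 ± 0.10 (adjusted p = 3.98e-06), to 0.536 of the WT level. It also fell in mdxTG against mdx (-0.47 ± 0.11, adjusted p = 0.00429) and in mdx against WT (-0.43 ± 0.10, adjusted p = 0.00429). Of all tested genes, 19.5% were lower without overlap in mdxTG against WT, 15% in mdxTG against mdx and 11.7% in mdx against WT, and 23.7%, 18.1% and 15% were higher. No member was higher without overlap, and besides Vegfa the members lower without overlap were Flt1, Sox17 and Vwf, all in mdxTG against WT. Vegfa kept its calls when any 1 library was left out, and in plain CPM the call remained for mdxTG against WT (-0.52, adjusted p = 0.00032) and mdxTG against mdx (-0.33, adjusted p = 0.0255) and was lost for mdx against WT (-0.20, adjusted p = 0.119). Without WT replicates 1 and 2 it stood at -0.87 in mdxTG against WT (adjusted p = 1.05e-05) and -0.40 in mdx against WT (adjusted p = 0.00757).

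Kdr (chromosome 5, 75932827 to 75978458, minus strand) encodes VEGFR2, the receptor that carries most of the VEGFA signal. It had 68.5, 86.6, 69.0 and 54.2 normalized CPM in mdxTG, against 61.4, 49.9, 49.7 and 53.9 in mdx and 48.8, 51.1, 63.4, 73.4 and 76.2 in WT. The highest libraries were mdxTG replicate 2 and WT replicates 4 and 5, and the groups overlapped in all 3 comparisons. The limma log2 fold changes were 0.35 ± 0.16 in mdxTG against mdx (adjusted p = 0.108), 0.15 ± 0.15 in mdxTG against WT (adjusted p = 0.40) and -0.20 ± 0.15 in mdx against WT (adjusted p = 0.32). The first of these passed the threshold in 3 settings, which were without mdxTG replicate 4 (0.47, adjusted p = 0.046), without WT replicates 1 and 2 (0.35, adjusted p = 0.0358) and in plain CPM (0.50, adjusted p = 0.0439). WT libraries enter this comparison only through the shared spread. Without WT replicates 1 and 2 the estimate therefore stayed at 0.35 and its SE went from 0.16 to 0.12, so that pass is no separate support. Without WT replicates 1 and 2, Kdr was lower in mdx than in WT (-0.40, adjusted p = 0.0306), and the mdxTG against WT value turned to -0.04 (adjusted p = 0.793), while in plain CPM it passed at 0.53 (adjusted p = 0.0125).

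Flt1 (chromosome 5, 147561604 to 147726011, minus strand) encodes VEGFR1, the high-affinity VEGFA receptor that also exists as a secreted form, and gene-level counts do not separate the membrane and secreted forms. It had 44.8, 73.2, 61.3 and 72.3 normalized CPM in mdxTG, against 72.1, 63.1, 62.9 and 96.4 in mdx and 79.1, 87.7, 109, 131 and 146 in WT. Every mdxTG library lay below every WT library, and of the mdx libraries replicate 4 alone reached into the WT range. Flt1 fell in mdxTG against WT by -0.80 ± 0.19 (limma adjusted p = 0.00317) and in mdx against WT by -0.57 ± 0.19 (adjusted p = 0.0354). In mdxTG against mdx the change was -0.23 ± 0.20 (adjusted p = 0.441). The mdxTG against WT call held when any 1 library was left out (adjusted p = 0.00115 to 0.0132) and was lost in plain CPM (-0.42, adjusted p = 0.102). The mdx against WT call was lost when any one of WT replicates 3 to 5 or mdx replicates 1 to 3 was left out (highest adjusted p = 0.0988), and without WT replicates 1 and 2 it stood at -0.81 (adjusted p = 0.0038).

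Within each library, the ratio of 2 genes does not depend on the scaling, so the pairs of genes were also compared as ratios of normalized CPM. Flt1/Kdr was 0.654, 0.846, 0.888 and 1.33 in mdxTG, against 1.17, 1.26, 1.26 and 1.79 in mdx and 1.62, 1.72, 1.72, 1.78 and 1.91 in WT. All mdxTG libraries were below all WT libraries, and in mdxTG against WT the ratio differed by -0.96 ± 0.22 on the log2 scale (exact two-sided permutation p = 0.0159, adjusted over 15 ratio tests 0.0595). The exact p could not go below 0.0159 for 4 against 5 libraries or below 0.0286 for 4 against 4, and no ratio passed 0.05 after adjustment. Vegfa/Kdr was 2.43, 1.67, 2.24 and 2.55 in mdxTG, against 3.92, 4.45, 4.04 and 3.25 in mdx and 5.21, 6.46, 4.51, 3.65 and 3.56 in WT. The mdxTG libraries were below all others, by -1.06 ± 0.21 against WT (exact permutation p = 0.0159, adjusted 0.0595) and by -0.83 ± 0.17 against mdx (exact permutation p = 0.0286, adjusted 0.0794), while mdx and WT overlapped.

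**Figure D2:**
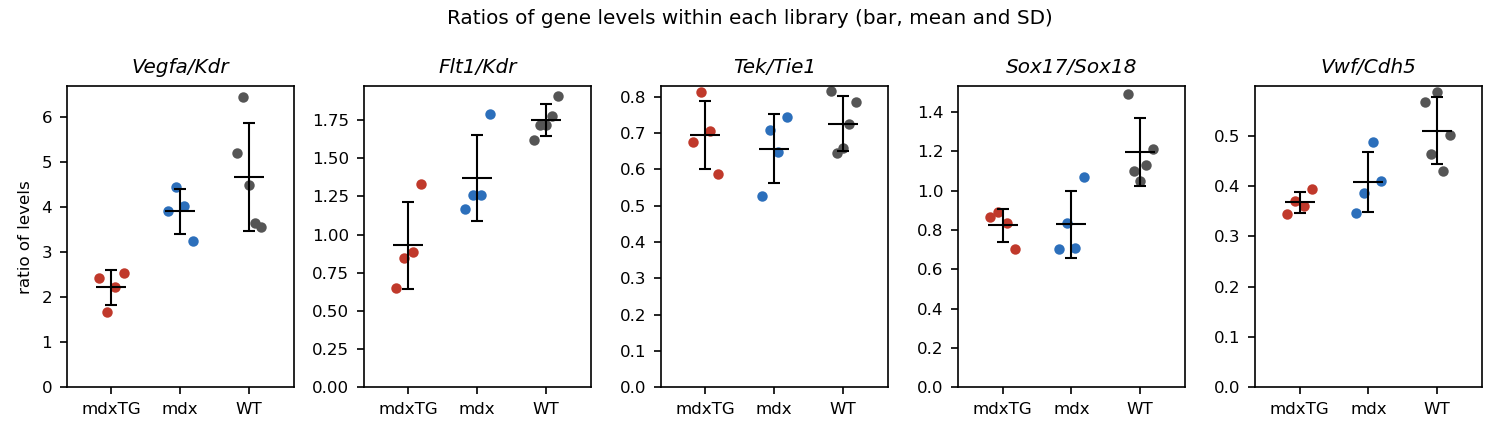
Ratios of the normalized CPM of 2 genes within each library, for 5 pairs; each point is 1 library and bars give the mean and SD of mdxTG (n = 4), mdx (n = 4) and WT (n = 5). The mdxTG libraries lie below all WT libraries for Vegfa/Kdr, Flt1/Kdr, Sox17/Sox18 and Vwf/Cdh5, and the groups overlap for Tek/Tie1.

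The other VEGF ligands and receptors did not move as one. Of the 7 genes Vegfb, Vegfc, Vegfd, Pgf, Flt4, Nrp1 and Nrp2, 2 rose and 2 fell in mdxTG against WT, 2 rose and 1 fell in mdxTG against mdx, and 0 rose and 1 fell in mdx against WT. Their median log2 fold changes were -0.08, -0.13 and -0.09. In plain CPM there were 3 rises and 1 fall, 2 and 1, and 1 and 0. Of all tested genes 54.0%, 28.4% and 34.6% changed in these comparisons with the scaling. Pgf, which encodes placental growth factor, a ligand of FLT1, had 0.50, 0.201, 0.756 and 1.28 normalized CPM in mdxTG, against 1.53, 1.49, 1.55 and 2.31 in mdx and 2.22, 2.62, 1.95, 1.93 and 2.43 in WT. It fell in mdxTG against WT (-1.28 ± 0.21, limma adjusted p = 0.000168) and against mdx (-0.97 ± 0.23, adjusted p = 0.00494), and its level is low enough for the pseudocount of 0.5 to shrink these values. Vegfb, also a ligand of FLT1, averaged 68.4 ± 4.14 normalized CPM in mdxTG, 80.3 ± 6.99 in mdx and 104 ± 16.1 in WT (SD) and fell in mdxTG against WT (-0.59 ± 0.10, adjusted p = 0.000171) and in mdx against WT (-0.37 ± 0.10, adjusted p = 0.0108). In plain CPM both of its calls were lost (-0.22 with adjusted p = 0.0557 and -0.13 with adjusted p = 0.277). Vegfc and Vegfd, ligands of the lymphatic receptor FLT4, rose in mdxTG against mdx (0.46 ± 0.15, adjusted p = 0.0312, and 0.40 ± 0.11, adjusted p = 0.0138). All 4 mdxTG libraries were above all 4 mdx libraries for both genes: Vegfc had 3.29, 3.51, 3.59 and 2.60 normalized CPM in mdxTG and 2.14, 2.25, 2.19 and 2.29 in mdx.

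Tek (chromosome 4, 94739289 to 94874976, plus strand) encodes TIE2, the receptor of the angiopoietins. Its levels were 26.3, 35.2, 30.9 and 27.3 normalized CPM in mdxTG, against 27.0, 28.0, 26.4 and 37.5 in mdx and 32.7, 36.0, 34.5, 42.5 and 45.4 in WT. The libraries mdxTG replicate 2 and mdx replicate 4 lay within the WT range, and the other libraries of these groups were below all WT libraries. Tek fell in mdx against WT (-0.36 ± 0.13, limma adjusted p = 0.0388) and in mdxTG against WT (-0.35 ± 0.13, adjusted p = 0.0317), and the change in mdxTG against mdx was 0.02 ± 0.13 (adjusted p = 0.948). With the replicate number as a block, the mdx against WT value was -0.30 with adjusted p = 0.0614 over all groups and 0.0111 with these 2 groups alone. Both calls were lost in plain CPM and without WT replicate 4 or 5, among others, and both held without WT replicates 1 and 2 (-0.46, adjusted p = 0.0199, and -0.44, adjusted p = 0.0153).

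Tie1 (chromosome 4, 118471191 to 118490061, minus strand) encodes a receptor with no high-affinity ligand that pairs with TIE2. It had 39.0, 43.2, 43.7 and 46.4 normalized CPM in mdxTG, against 51.2, 39.6, 40.8 and 50.4 in mdx and 40.2, 55.8, 52.3, 58.6 and 57.9 in WT. WT replicate 1 was as low as the lowest mdxTG and mdx libraries, and the other WT libraries were above all of these. Tie1 fell in mdxTG against WT by -0.28 ± 0.12 (limma adjusted p = 0.0499), a call that was lost in 10 of the 13 fits that left out 1 library (highest adjusted p = 0.133). Its changes in mdxTG against mdx (-0.07 ± 0.12, adjusted p = 0.713) and mdx against WT (-0.21 ± 0.12, adjusted p = 0.167) did not pass, the second passing without WT replicate 1 (-0.31, adjusted p = 0.0222). Without WT replicates 1 and 2 it fell in both comparisons with WT (-0.38 in mdxTG, adjusted p = 0.00574, and -0.31 in mdx, adjusted p = 0.0266). The Tek/Tie1 ratio averaged 0.695 ± 0.0934 in mdxTG, 0.656 ± 0.0951 in mdx and 0.726 ± 0.0748 in WT (SD), with overlap in all comparisons and exact permutation p = 0.302 or more.

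Among the other genes of the angiopoietin pathway, Angpt1, which encodes the activating ligand of TIE2, had 10.2, 14.5, 13.8 and 12.7 normalized CPM in mdxTG, against 20.1, 21.5, 18.7 and 16.6 in mdx and 13.5, 13.3, 16.1, 20.6 and 16.5 in WT. The mdxTG libraries were all below the mdx libraries, and Angpt1 fell in mdxTG against mdx (-0.57 ± 0.14, limma adjusted p = 0.00682). Angpt4, another ligand of TIE2, had 1.56, 1.66, 1.26 and 1.82 in mdxTG, against 0.306, 0.267, 0.482 and 0.512 in mdx and 0.121, 0.682, 0.579, 0.848 and 0.617 in WT. It rose in mdxTG against mdx (1.22 ± 0.21, adjusted p = 0.000502) and against WT (1.00 ± 0.20, adjusted p = 0.000653), with no overlap. Angpt4 averaged 0.392 in mdx and 0.569 in WT, near the pseudocount of 0.5, which shrinks these values. Ptprb, which encodes the endothelial phosphatase that removes phosphate from TIE2, fell in mdxTG against WT (-0.60 ± 0.18, adjusted p = 0.0118), and not in plain CPM (-0.22, adjusted p = 0.348). Over the 6 genes Angpt1, Angpt2, Angpt4, Angptl4, Ptprb and Dok2, 2 rose and 1 fell in mdxTG against WT, 1 rose and 1 fell in mdxTG against mdx, and 1 rose (Angptl4, 1.16 ± 0.35, adjusted p = 0.0205) and 0 fell in mdx against WT. In plain CPM there were 3 rises and 0 falls, 1 and 1, and 3 and 0.

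Pecam1 (chromosome 11, 106654217 to 106750628, minus strand) encodes CD31, an adhesion molecule of endothelial junctions that leukocytes and platelets also carry. It had 76.8, 90.0, 76.6 and 88.9 normalized CPM in mdxTG, against 83.7, 90.2, 80.6 and 105 in mdx and 84.2, 97.2, 104, 123 and 113 in WT. The mdxTG libraries were in or below the lower part of the WT range, and the groups overlapped. Pecam1 fell in mdxTG against WT (-0.32 ± 0.11, limma adjusted p = 0.0241), and the changes in mdxTG against mdx (-0.11 ± 0.12, adjusted p = 0.525) and mdx against WT (-0.21 ± 0.11, adjusted p = 0.158) did not pass. The call was lost in plain CPM (0.06, adjusted p = 0.714) and when WT replicate 4, WT replicate 5, mdxTG replicate 1 or mdxTG replicate 3 was left out (highest adjusted p = 0.0718). Without WT replicate 1 the mdx against WT change passed (-0.28, adjusted p = 0.0471). Without WT replicates 1 and 2, Pecam1 was lower than in WT in both comparisons (-0.44 in mdxTG, adjusted p = 0.00215, and -0.34 in mdx, adjusted p = 0.0187).

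Cdh5 (chromosome 8, 104101625 to 104144511, plus strand) encodes VE-cadherin, the adherens junction protein of endothelium. It had 85.0, 124, 103 and 107 normalized CPM in mdxTG, against 108, 96.5, 103 and 134 in mdx and 86.6, 99.4, 129, 143 and 136 in WT. WT replicates 1 and 2 were at or below the level of most mdxTG and mdx libraries, and WT replicates 3 to 5 were above all but 1 of them. The changes were -0.17 ± 0.15 in mdxTG against WT (limma adjusted p = 0.37), -0.08 ± 0.16 in mdxTG against mdx (adjusted p = 0.766) and -0.09 ± 0.15 in mdx against WT (adjusted p = 0.673). Without WT replicates 1 and 2, Cdh5 was lower in mdxTG than in WT (-0.39, adjusted p = 0.0177). An antisense gene, Gm29682, overlaps Cdh5, and without a known strand setting of the counting its reads cannot be told apart from those of Cdh5.

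Sox17 (chromosome 1, 4490931 to 4497354, minus strand) encodes a transcription factor of arterial endothelium. Its levels were 8.43, 7.54, 8.20 and 8.96 normalized CPM in mdxTG, against 12.1, 11.3, 7.42 and 12.1 in mdx and 10.7, 15.2, 11.4, 12.7 and 11.5 in WT. The mdxTG libraries were below all WT libraries, and all mdx libraries but replicate 3 were above the mdxTG libraries. Sox17 fell in mdxTG against WT (-0.54 ± 0.14, limma adjusted p = 0.00432), a call that held without any 1 library (adjusted p = 0.000533 to 0.0164) and was lost in plain CPM (-0.18, adjusted p = 0.284). In mdxTG against mdx it changed by -0.33 ± 0.14 (adjusted p = 0.104), and without mdx replicate 3 by -0.49 (adjusted p = 0.00673). DESeq2 on the recovered reads also called that comparison (-0.39, adjusted p = 0.0478). The change in mdx against WT was -0.21 ± 0.14 (adjusted p = 0.267). Without WT replicates 1 and 2 the values were -0.49 in mdxTG against WT (adjusted p = 0.0103) and -0.16 in mdx against WT (adjusted p = 0.403). A gene on the opposite strand, Gm37587, overlaps Sox17.

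Sox18 (chromosome 2, 181669836 to 181671640, minus strand) encodes a related factor needed for lymphatic and blood vessel formation. It had 9.75, 8.46, 9.81 and 12.7 normalized CPM in mdxTG, against 17.2, 13.5, 10.5 and 11.3 in mdx and 7.22, 13.9, 10.9, 11.3 and 9.44 in WT. The groups overlapped, and no comparison passed: -0.03 ± 0.18 in mdxTG against WT (limma adjusted p = 0.893), -0.34 ± 0.19 in mdxTG against mdx (adjusted p = 0.198) and 0.31 ± 0.18 in mdx against WT (adjusted p = 0.197). In plain CPM Sox18 passed upward in mdx against WT (0.53, adjusted p = 0.0279), and without WT replicates 1 and 2 it stood at -0.06 in mdxTG against WT (adjusted p = 0.792) and 0.29 in mdx against WT (adjusted p = 0.188). The Sox17/Sox18 ratio was 0.703 to 0.892 in mdxTG, against 0.703 to 1.07 in mdx and 1.05 to 1.49 in WT. It was lower in mdxTG than in WT without overlap (-0.53 ± 0.12, exact permutation p = 0.0159, adjusted 0.0595) and differed by -0.54 ± 0.17 in mdx against WT (exact permutation p = 0.0317, adjusted 0.0794), where mdx replicate 4 reached into the WT range.

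Vwf (chromosome 6, 125546774 to 125686679, plus strand) encodes von Willebrand factor, which tethers platelets and is stored in endothelial granules and in megakaryocytes. It had 29.3, 45.9, 37.1 and 42.4 normalized CPM in mdxTG, against 37.5, 37.3, 49.9 and 55.0 in mdx and 49.2, 46.1, 75.6, 61.8 and 68.4 in WT. All mdxTG libraries were below all WT libraries, though mdxTG replicate 2 and WT replicate 2 were close. Vwf fell in mdxTG against WT (-0.63 ± 0.17, limma adjusted p = 0.00647), and not in plain CPM (-0.25, adjusted p = 0.26). In mdx against WT the change was -0.41 ± 0.17 (adjusted p = 0.0743), and with the replicate number as a block over these 2 groups alone it was -0.36 (adjusted p = 0.00951), against 0.0598 for the block over all groups. It also passed without WT replicate 2 (-0.50, adjusted p = 0.0309), without mdx replicate 4 (-0.52, adjusted p = 0.046) and without WT replicates 1 and 2 (-0.62, adjusted p = 0.00944), where mdxTG against WT stood at -0.83 (adjusted p = 0.00077). The Vwf/Cdh5 ratio was 0.345 to 0.395 in mdxTG, against 0.346 to 0.487 in mdx and 0.431 to 0.587 in WT, and mdxTG was below WT without overlap (-0.46 ± 0.09, exact permutation p = 0.0159, adjusted 0.0595). Of 8 listed platelet genes 3 were in the deposited sheet. Of these, Itga2b and Itgb3 rose in mdxTG against WT (1.63 ± 0.19 and 0.91 ± 0.19, adjusted p = 5.07e-06 and 0.000983), and Pf4 changed by 0.46 ± 0.20 (adjusted p = 0.0603).

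**Figure D3:**
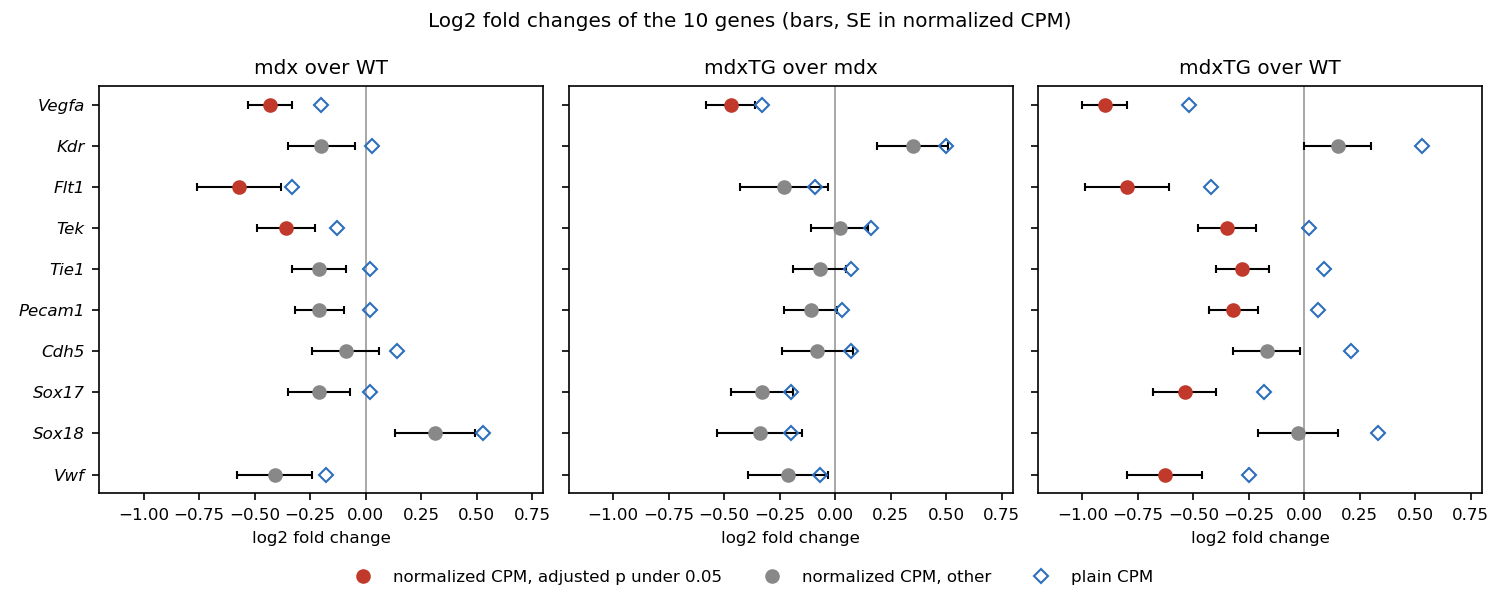
Log2 fold change with SE of each member in mdx over WT, mdxTG over mdx and mdxTG over WT, with the submitters' scaling and in plain CPM, marking values past an adjusted p of 0.05. Vegfa lies below 0 under both scalings in all 3 comparisons, at -0.90 and -0.52 in mdxTG over WT, and most other members move across or close to 0 in plain CPM.

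Per kilobase of exon, the order of the members' levels also differed between the genotypes. Vegfa was highest in every group (35.2 ± 2.85 normalized CPM per kb in mdxTG, 49.0 ± 6.59 in mdx and 65.8 ± 6.82 in WT, SD), followed by Cdh5 (24.9 ± 3.79, 26.2 ± 3.89 and 28.3 ± 5.86), Pecam1 and Tie1. Vwf and Sox17 were the lowest in every group. Between these, Flt1 had rank 8 in mdxTG (4.66 ± 0.98 per kb) and in mdx (5.45 ± 1.17) and rank 5 in WT (8.17 ± 2.07), and Kdr had rank 5 in mdxTG (7.70 ± 1.47) and rank 7 in mdx (5.95 ± 0.603) and WT (6.93 ± 1.38). Neighbours in this middle stretch (Flt1, Tek, Kdr and Sox18 in WT, and Kdr, Tek and Sox18 in mdxTG) differed by less than the larger of their SDs. Lengths are those of all annotated exons, 13.5 kb for Flt1 and 9.03 kb for Kdr, and a gene expressed from shorter forms has a higher level per kb than given here.

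Within a genotype, the members fell into groups that varied together. After subtracting each genotype's mean, the 15 pairs among Pecam1, Cdh5, Kdr, Flt1, Tek and Tie1 had Pearson correlations of 0.48 to 0.95 over the 13 libraries, with a median of 0.75, and the highest was Cdh5 with Flt1. Vwf was correlated with these 6 genes at a median of 0.58, Sox17 at 0.15, Sox18 at 0.07 and Vegfa at -0.41 (range -0.51 to 0.04). Sox17 and Sox18 were correlated with each other at 0.72, and Vegfa with Sox18 at 0.61 and with Vwf at -0.66. Vegfa was negatively correlated with Flt1, Tek, Cdh5 and Pecam1 and near 0 with Kdr and Tie1, although Vegfa and Flt1 were both lower in mdxTG than in WT. These correlations share the libraries, their scaling and the main within-genotype axis, with which Vwf (-0.95), Cdh5 (-0.86), Flt1 (-0.82), Pecam1 (-0.71) and Vegfa (0.61) were correlated, and the part of that axis in them was not tested.

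**Figure D4:**
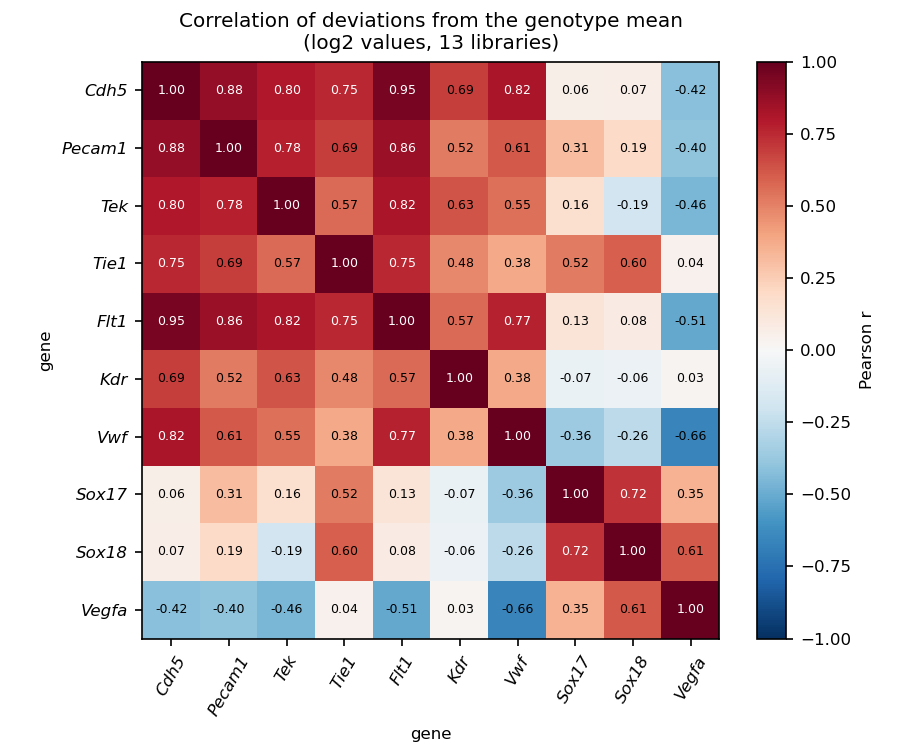
Pearson correlation between members of the deviations of log2 levels from the genotype mean over 13 libraries, with red for positive and blue for negative values. Cdh5, Pecam1, Tek, Tie1, Flt1 and Kdr form a block of 0.48 to 0.95, Sox17 and Sox18 reach 0.72 with each other, and Vegfa is negative with Vwf at -0.66.

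Among the genes most like the 6 core members in this measure were Ssfa2 (mean correlation 0.85), Itga1, Itga6 and Cd93 (0.83 each) and Spry4, Mmrn2, Sh3bp4, Pde3a and Reep3 (0.82 each), over 13 libraries, beside a median of 0 over 13821 genes and of 0.37 over 25 other pan-endothelial genes. Itga1 and Itga6 encode integrin chains that bind collagen and laminin, Cd93 a receptor of endothelial and myeloid cells and Mmrn2 its matrix ligand. Their genotype changes differed from each other. Mmrn2 fell in mdxTG against WT (-0.63 ± 0.12, limma adjusted p = 0.000546) and in mdx against WT (-0.48 ± 0.12, adjusted p = 0.00709), both calls being lost in plain CPM (-0.26, adjusted p = 0.125, and -0.25, adjusted p = 0.18), whereas Cd93 rose in mdx against WT (0.47 ± 0.11, adjusted p = 0.00486). Spry4, which encodes an inhibitor of receptor tyrosine kinase signalling, rose in mdxTG against WT (0.78 ± 0.19, adjusted p = 0.00334) and against mdx (0.60 ± 0.20, adjusted p = 0.0395). Genes that vary with the core members between libraries of one genotype therefore included genes that rose and genes that fell between genotypes.

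Of 25 other pan-endothelial genes, 2 rose and 11 fell in mdxTG against WT, 1 rose and 0 fell in mdxTG against mdx, and 1 rose and 4 fell in mdx against WT. Their median log2 fold changes were -0.27, -0.10 and -0.19, beside 0.02, 0 and -0.01 over all genes, and 0.10, 0.03 and 0.03 in plain CPM beside 0.36, 0.13 and 0.20. In plain CPM 5 passed upward and 2 downward in mdxTG against WT, 1 and 0 in mdxTG against mdx, and 2 and 1 in mdx against WT, so the balance of calls against WT turned with the scaling. Of all tested genes 54.0%, 28.4% and 34.6% changed with the scaling, and these shares stand beside the counts of every list here. The share of pan-endothelial genes called was near that of all genes in mdxTG against WT and below it in the other comparisons. Palmd, Robo4, a receptor that steadies vessel junctions, and Mmrn2 fell in mdxTG against WT, Palmd by -0.80 ± 0.10 (adjusted p = 7.15e-06) and Robo4 by -0.71 ± 0.12 (adjusted p = 0.000173, limma), and of these 3 Palmd (-0.43, adjusted p = 0.000485) and Robo4 (-0.35, adjusted p = 0.0321) also passed in plain CPM. Lmo2, which encodes a transcription cofactor of blood and endothelium, rose in all 3 comparisons (0.74 ± 0.08 in mdxTG against WT, 0.37 ± 0.08 in mdxTG against mdx and 0.37 ± 0.08 in mdx against WT). None of the 25 genes was at 0 in any library.

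Some capillary genes fell against WT, and others rose in mdxTG against mdx. Of the 11 listed capillary genes, Kdr included, 1 rose and 4 fell in mdxTG against WT, 3 rose and 0 fell in mdxTG against mdx, and 0 rose and 3 fell in mdx against WT. In plain CPM these counts were 3 and 1, 4 and 0, and 0 and 1, so that rises outnumbered falls in mdxTG against WT. With the scaling, the share of capillary genes called was in no comparison above that of all genes (54.0%, 28.4% and 34.6%). Aqp1, the water channel of capillary endothelium, averaged 279 ± 40.3 normalized CPM in mdxTG, 310 ± 52.8 in mdx and 535 ± 86.7 in WT (SD) and fell in both comparisons with WT (-0.93 ± 0.14 in mdxTG, adjusted p = 6.81e-05, and -0.79 ± 0.14 in mdx, adjusted p = 0.000663, limma), also in plain CPM (-0.56 and -0.55). Cd36, a fatty acid transporter of capillaries that fibres and macrophages also carry, fell in mdx against WT (-0.48 ± 0.12, adjusted p = 0.00835; in plain CPM -0.24, adjusted p = 0.177) and rose in mdxTG against mdx (0.39 ± 0.13, adjusted p = 0.036). Rgcc (0.77 ± 0.14, adjusted p = 0.000891) and Meox2 (0.46 ± 0.12, adjusted p = 0.0123) rose in mdxTG against mdx too. Gpihbp1, which carries lipoprotein lipase into capillaries, fell in mdxTG against WT (-0.64 ± 0.18, adjusted p = 0.00686), though not in plain CPM (-0.27, adjusted p = 0.191).

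Some arterial and Notch genes were lowest in mdxTG, while others rose or were lowest in mdx. Dll4, the Notch ligand of arterial and tip cells, had 7.54, 7.49, 6.95 and 8.94 normalized CPM in mdxTG, against 12.8, 11.5, 10.9 and 11.6 in mdx and 12.5, 17.8, 14.2, 17.8 and 15.2 in WT. The mdxTG libraries were below all others, and Dll4 fell in mdxTG against WT (-0.95 ± 0.11, limma adjusted p = 5.18e-06), in mdxTG against mdx (-0.57 ± 0.12, adjusted p = 0.00202) and in mdx against WT (-0.38 ± 0.11, adjusted p = 0.0141). Only the last of these was lost in plain CPM (-0.16, adjusted p = 0.293). Notch4, an endothelial Notch receptor, fell in mdxTG against WT (-0.51 ± 0.13, adjusted p = 0.00484) and against mdx (-0.52 ± 0.14, adjusted p = 0.0113), neither call holding in plain CPM (-0.14, adjusted p = 0.408, and -0.38, adjusted p = 0.0638), while Dll1 rose in both comparisons with WT (0.69 ± 0.16 and 0.64 ± 0.16). Over the 10 Notch genes 2 rose (Dll1 and Heyl) and 2 fell in mdxTG against WT, with a median of 0.05. In mdxTG against mdx 0 rose and 2 fell, and in mdx against WT 1 rose and 2 fell. Over the 10 arterial genes 2 rose and 4 fell in mdxTG against WT, 0 and 2 in mdxTG against mdx, and 2 and 3 in mdx against WT. Against WT in mdxTG, Gja4 (0.52 ± 0.15, adjusted p = 0.00941) and Unc5b (0.66 ± 0.11, adjusted p = 0.000211) rose. Sema3g (-0.66 ± 0.11, adjusted p = 0.000152), the gap junction gene Gja5 (-0.47 ± 0.11, adjusted p = 0.00243), Bmx and Stmn2 fell. Bmx and Stmn2 averaged 1.05 and 2.01 normalized CPM in mdxTG and 0.889 and 1.97 in mdx, so they were not lowest in mdxTG. None of the 4 arterial falls in mdxTG against WT passed in plain CPM, where 3 arterial genes rose, and the Notch list then had 5 rises and 1 fall. Over 6 genes of the BMP9 and ALK1 receptors of vessels, 0 rose and 1 fell in both mdxTG comparisons, and 0 rose and 0 fell in mdx against WT. The fall was Smad6 (-0.58 ± 0.21, limma adjusted p = 0.0275, against WT and -0.63 ± 0.22, adjusted p = 0.0415, against mdx), lost in plain CPM in both.

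Venous and sprouting genes included some that stood highest in mdx. Of the 6 venous genes, 1 rose and 2 fell in mdxTG against WT, 0 rose and 2 fell in mdxTG against mdx, and 2 rose and 1 fell in mdx against WT. In plain CPM these were 2 and 0, 0 and 1, and 2 and 0. Of all tested genes 54.0%, 28.4% and 34.6% changed with the scaling. Nr2f2 fell in mdxTG against WT (-0.51 ± 0.09, limma adjusted p = 0.000269) and in mdx against WT (-0.31 ± 0.09, adjusted p = 0.0148), though not in plain CPM (-0.14 and -0.09). Vcam1, an adhesion molecule of activated endothelium, rose in mdx against WT (0.95 ± 0.14, adjusted p = 0.000193) and fell in mdxTG against mdx (-0.93 ± 0.15, adjusted p = 0.000406, limma), with means of 6.29 ± 0.96 normalized CPM in mdxTG, 12.6 ± 3.20 in mdx and 6.15 ± 0.241 in WT (SD). Which cells of the muscle carried the Vcam1 signal was not tested. Cxcr4, a chemokine receptor of tip cells and leukocytes, had 3.71, 4.66, 4.72 and 5.72 normalized CPM in mdxTG, against 7.05, 9.11, 13.7 and 13.4 in mdx and 3.21, 3.41, 5.42, 5.11 and 4.14 in WT. The mdx libraries were above all others, and Cxcr4 rose in mdx against WT (1.23 ± 0.20, adjusted p = 0.000302) and fell in mdxTG against mdx (-1.09 ± 0.21, adjusted p = 0.00136). Apln, the apelin gene of tip cells, fell in mdxTG against mdx (-0.72 ± 0.16, adjusted p = 0.00463), while its receptor gene Aplnr rose in mdxTG against WT (0.81 ± 0.16, adjusted p = 0.000841) and in mdx against WT (0.59 ± 0.16, adjusted p = 0.0117). Over the 11 sprouting genes, 3 rose and 4 fell in mdxTG against WT, 0 rose and 4 fell in mdxTG against mdx, and 4 rose and 1 fell in mdx against WT. In plain CPM these were 5 and 2, 1 and 4, and 5 and 0. The basement membrane collagens Col4a1 and Col4a2, which many cells make, were among those that rose against WT.

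**Figure D5:**
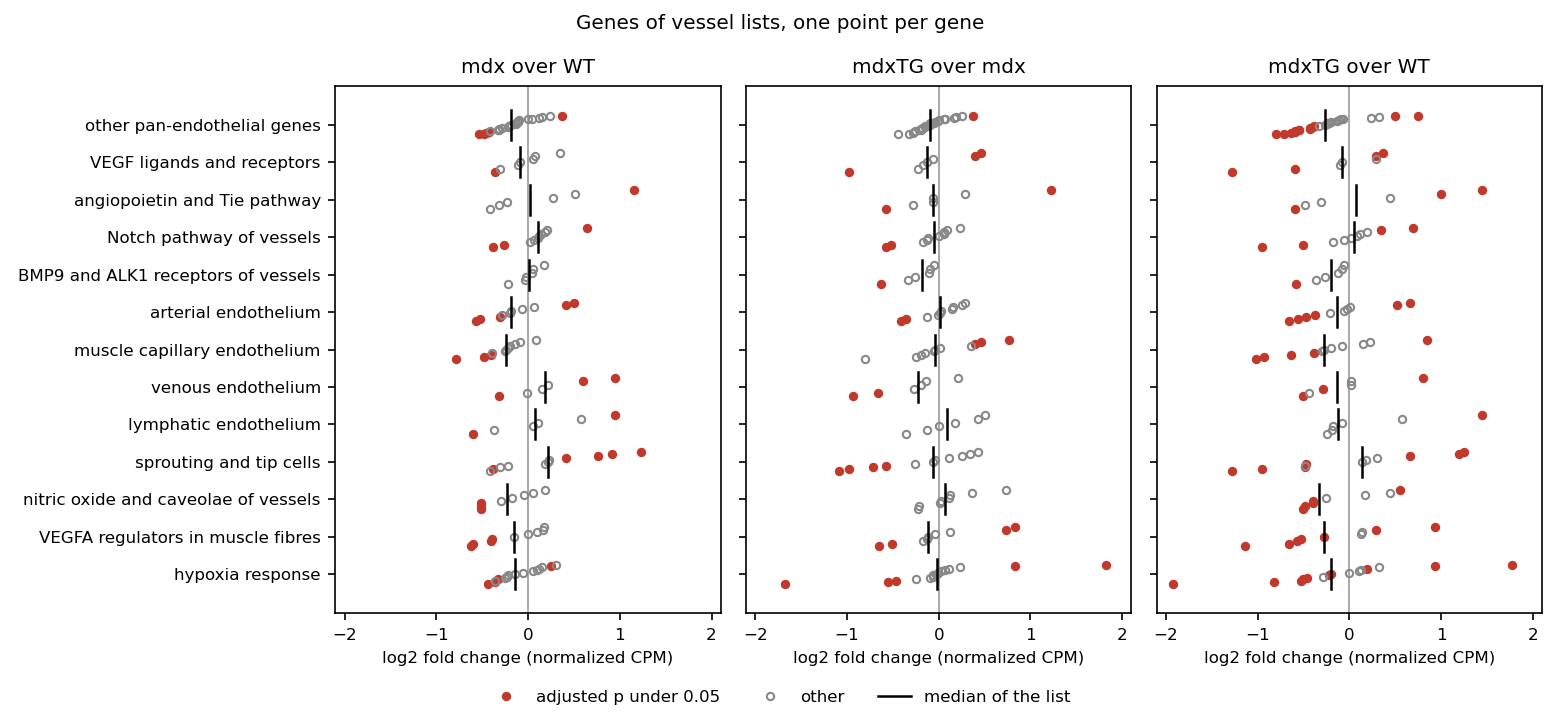
Log2 fold changes of the genes of 13 vessel lists in mdx over WT, mdxTG over mdx and mdxTG over WT; each point is 1 gene, filled where its adjusted p is under 0.05, and the black line is the list's median. The pan-endothelial list has its median at -0.27 in mdxTG over WT and -0.19 in mdx over WT, and the sprouting list lies at 0.14 and 0.22.

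Some genes known to act on Vegfa or on vessel tone changed, and others did not. Hif1a, which encodes the hypoxia-inducible factor HIF-1α, passed in no comparison. Its changes were 0.128 in mdxTG against WT, -0.042 in mdxTG against mdx and 0.17 in mdx against WT. Ppargc1a, which encodes the coactivator PGC-1α, an inducer of Vegfa in muscle, had 25.5, 34.3, 36.4 and 30.4 normalized CPM in mdxTG, against 45.6, 42.4, 51.5 and 60.3 in mdx and 53.9, 30.9, 47.9, 55.2 and 68.7 in WT. All mdxTG libraries were below all mdx libraries, and Ppargc1a fell in mdxTG against mdx (-0.65 ± 0.20, limma adjusted p = 0.0224), though not in plain CPM (-0.51, adjusted p = 0.0793). In mdx against WT Ppargc1a changed by -0.01 ± 0.19 (adjusted p = 0.988). The related gene Ppargc1b moved otherwise. It rose in mdxTG against mdx (0.73 ± 0.23, adjusted p = 0.0247), also in plain CPM (0.87, adjusted p = 0.013). In mdx against WT it fell (-0.60 ± 0.21, adjusted p = 0.0416), though not in plain CPM (-0.38, adjusted p = 0.203). Epas1, the hypoxia-inducible factor HIF-2α, and Esrra, a nuclear receptor partner of PGC-1α, fell in mdxTG against WT (-0.52 ± 0.13, adjusted p = 0.00388, and -0.57 ± 0.08, adjusted p = 2.94e-05), and in plain CPM Esrra still passed (-0.19, adjusted p = 0.0382) and Epas1 did not (-0.15, adjusted p = 0.401). Egln1, a prolyl hydroxylase that marks hypoxia-inducible factors for destruction, fell in all 3 comparisons (-1.14 ± 0.08 in mdxTG against WT, -0.51 ± 0.09 in mdxTG against mdx and -0.63 ± 0.08 in mdx against WT), also in plain CPM. Its relative Egln3 rose in mdxTG against WT (0.93 ± 0.15, adjusted p = 0.000129) and against mdx (0.84 ± 0.16, adjusted p = 0.00124). The 9 genes of this list gave 2 rises and 5 falls in mdxTG against WT, 2 and 2 in mdxTG against mdx, and 0 and 4 in mdx against WT. In plain CPM there were 3 rises and 2 falls, 2 and 1, and 2 and 1, so the excess of falls against WT was not kept.

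Targets of the hypoxia response moved in opposite directions. Of 15 genes, 3 rose and 7 fell in mdxTG against WT, 2 rose and 3 fell in mdxTG against mdx, and 1 rose and 3 fell in mdx against WT. In plain CPM the balance turned, with 6 rises and 2 falls in mdxTG against WT, 3 and 2 in mdxTG against mdx, and 5 and 1 in mdx against WT. Of all tested genes 54.0%, 28.4% and 34.6% changed with the scaling. Slc2a1, the glucose transporter GLUT1, averaged 36.5 ± 4.54 normalized CPM in mdxTG and 10.3 ± 1.56 in WT (SD) and rose in mdxTG against WT (1.77 ± 0.13, limma adjusted p = 7.13e-08) and against mdx (1.82 ± 0.14, adjusted p = 4.05e-07). Pfkfb3, a regulator of glycolysis, averaged 74.1 ± 23.2 in mdxTG, 234 ± 62.6 in mdx and 309 ± 168 in WT and fell in mdxTG against WT (-1.93 ± 0.37, adjusted p = 0.000532). Both are also expressed outside the vessels. Of the 8 genes of nitric oxide signalling and caveolae, 1 rose and 4 fell in mdxTG against WT, 0 and 0 changed in mdxTG against mdx, and 0 rose and 3 fell in mdx against WT. No fall passed in plain CPM, where 3 of the 8 genes rose in mdxTG against WT, 2 in mdxTG against mdx and 2 in mdx against WT. Nos3, the endothelial nitric oxide synthase, had 13.7, 12.9, 15.5 and 13.9 normalized CPM in mdxTG, against 21.1, 14.9, 14.8 and 15.7 in mdx and 15.5, 23.0, 17.9, 17.5 and 19.6 in WT, and fell in mdxTG against WT (-0.40 ± 0.12, adjusted p = 0.0128). Nos3 was not called in plain CPM (-0.03, adjusted p = 0.83).

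Markers of other cell types moved with genotype beside these changes. The summed level of 10 macrophage genes was 760.4 to 838.3 normalized CPM in mdxTG, 335.8 to 613.6 in mdx and 68.88 to 212.7 in WT, and 9 of the 10 rose in mdxTG against WT and in mdx against WT. In mdxTG against mdx 2 of them rose, Lgals3 (2.43) and Cd68 (1.63), and 2 fell, Trem2 (-1.07) and Itgam (-1.01), with a list median of -0.21. Within the macrophage sum, Lgals3 alone averaged 408 in mdxTG, 75.6 in mdx and 6.69 in WT. The 10 fibre genes summed to 96987 to 116498 in mdxTG, 117465 to 140604 in mdx and 143994 to 197904 in WT. In that sum Myh4 alone averaged 18626 in mdxTG, 33171 in mdx and 54076 in WT, and the genes did not move as one: 1 rose (Des, 1.00) and 4 fell in mdxTG against WT, 2 rose (Myh2 and Des) and 2 fell in mdxTG against mdx, and 0 rose and 4 fell in mdx against WT. The 12 mural cell genes, those of pericytes and smooth muscle around vessels, summed to 1045 to 1162 in mdxTG, 968 to 1213 in mdx and 1163 to 1458 in WT, with 5 falls and 1 rise in mdx against WT (3 and 2 in plain CPM), among the falls Myh11 (-0.78 ± 0.10, limma adjusted p = 5.96e-05). The 8 fibro-adipogenic genes summed to 3428 to 5146 in mdxTG, 2314 to 3935 in mdx and 1028 to 2607 in WT. The 25 other pan-endothelial genes summed to 553.6 to 666.7 in mdxTG, 591.3 to 727.6 in mdx and 597.4 to 793 in WT. Red blood cell genes summed to 59.6 to 146.3 in mdxTG, 38.72 to 80.33 in mdx and 78.3 to 183.9 in WT, and all 5 fell in mdx against WT. The part of these cell types in the members' changes was not tested.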

How the data were processed

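Polyadenylated RNA of the tibialis anterior was measured in 13 libraries (mdxTG n = 4, mdx n = 4, WT n = 5), made with a stranded kit per the labels' protocols. The submitters' processing notes name bcl2fastq 2.17, STAR, edgeR and the build mm10; for the counter, strand setting and annotation nothing is given in the sources used here. The authors deposited read counts per library and the mapped share as a fraction of them. Expression values are the authors' normalized signal (headed CPM), and 100% of them came within 0.001 of whole reads once the scaling was undone. Fold changes (log2) and p-values in the authors' deposited comparison tables were searched for the members only.

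The test was limma 3.58.1 (R 4.3.3, empirical Bayes trend) on log2 of normalized CPM plus 0.5, which understates changes of low genes, with all libraries in 1 fit, genes of at least 0.5 in 4 libraries, and Benjamini-Hochberg adjustment over the 13831 genes tested; the threshold was 0.05, and only genes past it are said to have risen or fallen. The 3 comparisons share libraries, so they are not independent. Ratios were tested by an exact two-sided permutation test. Alternatives were other pseudocounts and filters, plain CPM, other size factors, 2-group fits, a replicate block, edgeR 4.0.16 and DESeq2 1.42.0 on recovered reads, and leaving out libraries. The tests were also run on simulated data. A count of 3 reads corresponds to 0.0504 to 0.0818 normalized CPM, for counting error only.

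The members, the gene lists and the tests were chosen with earlier results of these data known. Named genes are all members, the up to 4 genes of each vessel or pathway list with the smallest p per comparison, the 3 most abundant of each list of other cell types, and the 10 genes most correlated with the core members, of which 1 is not reported here; where a named gene's values in further comparisons are given, they complete its description. Whether libraries came from separate animals is not labelled, so the p-values reflect variation among these libraries, possibly technical; replicates differed by more than sampling noise (chi-square per degree of freedom 24.2 to 183). Same-numbered mdx and WT libraries deviated together in all 4 pairs (correlation 0.18 to 0.45). Some other-numbered ones did so as much, such as mdx replicate 4 with WT replicate 5 (0.48) and mdx replicate 3 with WT replicate 5 (0.36). Others did not, such as mdx replicate 1 with WT replicate 5 (-0.45). This check therefore cannot show that the numbers pair libraries, and the fits with a replicate block are alternatives only. The mdxTG libraries shared only a number (-0.47 to 0.24 with WT and -0.36 to 0.41 with mdx). Gene coordinates and exon lengths are from GENCODE M21 on GRCm38, and promoters from RefSeq on GRCm38.p6, which gave windows for 5 of the 10 members.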

Additional observations from a re-analysis of the deposited data

Results flagged for a closer look

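In 45 groups of 4 or 5 libraries (the 10 members and 5 ratios in each genotype), a gap rule that marks about 1 in 20 groups by chance marked 3, all within mdx. Tek had 37.5 normalized CPM in mdx replicate 4, above the other mdx libraries at 26.4 to 28.0. The Flt1/Kdr ratio was 1.79 in the same library, above 1.17 to 1.26 in the others. Sox17 had 7.42 normalized CPM in mdx replicate 3, below 11.3 to 12.1 in the others.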

How the results depend on the processing

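The number of genes called in each comparison stayed within 1.5 times of the reported number under every alternative run, and 664 of 750 recomputed member values kept their direction and side of the threshold. In plain CPM alone only 8 member values did so, while 13 changed sign, 6 lost their call and 3 gained one. The number of members called was less stable. In plain CPM it was 2 in mdxTG against WT, 2 in mdxTG against mdx and 1 in mdx against WT, beside 7, 1 and 3 as reported. Without both WT replicates 1 and 2, an alternative chosen after seeing the data, it was 8, 2 and 7. The call this added in mdxTG against mdx was Kdr, whose estimate stayed at 0.35 there. DESeq2 on recovered reads gave 2 in mdxTG against mdx. Leaving out 1 library gave 4 to 7, 1 to 2 and 1 to 5, with the lowest counts without WT replicate 4 or 5, mdxTG replicate 1, or mdx replicate 1, 2 or 3. Why these counts moved was not tested, beyond the scaling itself.

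A replicate block in the 2-group fit, which leaves out WT replicate 5, gave 4 members in mdxTG against WT (Vegfa, Flt1, Sox17 and Vwf), with Tek (adjusted p = 0.084), Tie1 (0.0688) and Pecam1 (0.0532) not past the threshold, and added Vwf in mdx against WT (-0.36, adjusted p = 0.00951). In the fit of all groups, blocking left out Tek in mdx against WT (-0.30, adjusted p = 0.0614) and Tek (-0.28, 0.0534) and Tie1 (-0.25, 0.0905) in mdxTG against WT. It changed no other member's call.

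Values that changed sign were not past the threshold, apart from 3 in mdxTG against WT. In plain CPM these 3 were Tek (0.02), Tie1 (0.09) and Pecam1 (0.06), and Cdh5 (0.21) and Sox18 (0.33) also changed sign. Tie1 (0.07), Pecam1 (0.03) and Cdh5 (0.07) did so in mdxTG against mdx, and Kdr (0.03), Tie1 (0.02), Pecam1 (0.02), Cdh5 (0.14) and Sox17 (0.02) in mdx against WT. Tek in mdxTG against mdx was -0.0016 with DESeq2 size factors, -0.01 with DESeq2 on reads and -0.06 to 0.13 over the fits that left out 1 library. Kdr in mdxTG against WT was -0.04 without WT replicates 1 and 2. Over the fits without 1 library, Cdh5 ran over -0.16 to 0.02 in mdxTG against mdx and Sox18 over -0.15 to 0.07 in mdxTG against WT. The Tek/Tie1 log2 ratio ran over -0.14 to 0.01 in mdxTG against WT and -0.02 to 0.16 in mdxTG against mdx, and Sox17/Sox18 over -0.06 to 0.14 in mdxTG against mdx. The members had 299 reads or more in every library, and the effect of depth was not tested.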
